A study of Mus musculus with 9 samples.

Results

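The Iroquois genes of the mouse stand in 2 clusters of 3 genes each, and the intervals that CUT&RUN gave for HOXA13 and HOXD13 around both clusters are described here. The Irx3/5/6-Fto region ran over Irx3, Irx5 and Irx6 with the neighbouring gene Fto, extended by 200 kb at each end (chr8:91113525-92880956, 1.77 Mb). The Irx1/2/4 region ran over Irx1, Irx2 and Irx4 with the same extension (chr13:71757921-73469608, 1.71 Mb). Coordinates are those of mm10 with GENCODE gene models. An interval was counted in a region when its main summit lay inside, and intervals of any lists that shared at least 1 bp were joined into 1 site. The regions held 236 and 135 sites, 371 of the 206075 sites in all, and 7 of the 21755 protein-coding genes were chosen as members.

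Irx genes code for homeodomain transcription factors of the TALE class, named after the Iroquois genes of the fruit fly. Irx3 and Irx5 are needed early in the limb bud for its anterior and proximal elements, and Irx genes mark digit and joint tissue later. Fto codes for an RNA demethylase, and its introns are known for elements that act over long distances on Irx3. HOXA13 and HOXD13 are the homeodomain factors of the digit-forming, distal part of the limb. CUT&RUN cuts DNA beside an antibody bound in permeabilised cells, and a peak caller then lists the intervals where read ends pile up.

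Distal forelimb cells from B6CBAF1 embryos gave 9 libraries, each with its own list of intervals. Wild-type (wt) cells at E12.5 gave 3 libraries with the HOXA13 antibody and 3 with the HOXD13 antibody. The II1TDOM 542 (mutant) line carries, on chromosome 2, a relocated copy of the II1 limb enhancer with a promoter and lacZ. From this line came 2 HOXA13 libraries (E12.5) and a single HOXD13 library titled E11.5, the only HOXD13 library of its genotype. It is the only library with this stage in its title. The stage rests on the title alone, since the collection day given for all samples is E12.5. Cells of several embryos were pooled, no library was made without a specific antibody, and wt HOXD13 replicate 3 is an earlier library processed again. Replicates 3 of both antibodies in wt were sequenced with another read length than the other E12.5 libraries. The single 542 HOXD13 library had a read length of its own. The lists held 23939 to 117719 intervals, and background levels in them corresponded to 36.9 to 65.5 M read ends (M, 1000000). The shortest lists were those of wt HOXD13 replicates 1 and 3, with 23939 and 37589 intervals. RNA was not measured in these files, so Irx expression in these cells is not reported. Fewer bound cells and weaker binding per cell cannot be told apart in such pools.

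The sequences around the summits of the leading sites are given first, since the rest of the account turns on these positions. Each is the plus strand of the GRCm38 reference (RefSeq), with 50 bp to each side of the wt summit that ranked highest in its own list by fold enrichment. Capitals mark letters that match CCNATAAA, CTNATAAA, CCNGTAAA or CTNGTAAA on either strand, the HOX13-type motifs searched. The first 3 sequences are from the Irx3/5/6-Fto region and the other 2 are the sites of the Irx1/2/4 region found in all 9 lists.
128.6 kb upstream of Irx3, chr8:91930602-91930702: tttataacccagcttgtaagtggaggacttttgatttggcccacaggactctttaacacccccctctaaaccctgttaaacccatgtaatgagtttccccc
Fto intron, 158.6 kb past the Fto start, chr8:91472093-91472193: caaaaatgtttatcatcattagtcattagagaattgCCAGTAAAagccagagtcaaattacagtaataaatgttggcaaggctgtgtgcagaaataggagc
193.8 kb upstream of Irx3, chr8:91995856-91995956: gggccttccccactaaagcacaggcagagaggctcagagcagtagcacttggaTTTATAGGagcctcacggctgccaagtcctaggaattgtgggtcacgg
21.2 kb past the Irx1 start, chr13:71942428-71942528: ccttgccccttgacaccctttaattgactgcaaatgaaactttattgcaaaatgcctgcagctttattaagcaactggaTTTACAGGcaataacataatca
171.4 kb past the Irx4 start, chr13:73431856-73431956: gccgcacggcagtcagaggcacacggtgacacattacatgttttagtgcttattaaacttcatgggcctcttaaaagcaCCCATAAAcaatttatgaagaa

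The region of Irx3, Irx5, Irx6 and Fto held more intervals than the region of Irx1, Irx2 and Irx4 in each of the 9 lists. With HOXA13 in wt cells, the Irx3/5/6-Fto region held 115, 93 and 93 intervals in replicates 1, 2 and 3, and the Irx1/2/4 region held 59, 38 and 25. With HOXD13 in wt cells, the former held 48, 119 and 57 intervals and the latter 9, 48 and 7. The 542 HOXA13 lists gave 136 and 109 intervals in the Irx3/5/6-Fto region against 56 and 49, and the 542 HOXD13 list gave 151 against 63. Replicate 2 of wt HOXD13 was thus close to the HOXA13 lists, while replicates 1 and 3 were low in both regions.

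**Figure D1:**
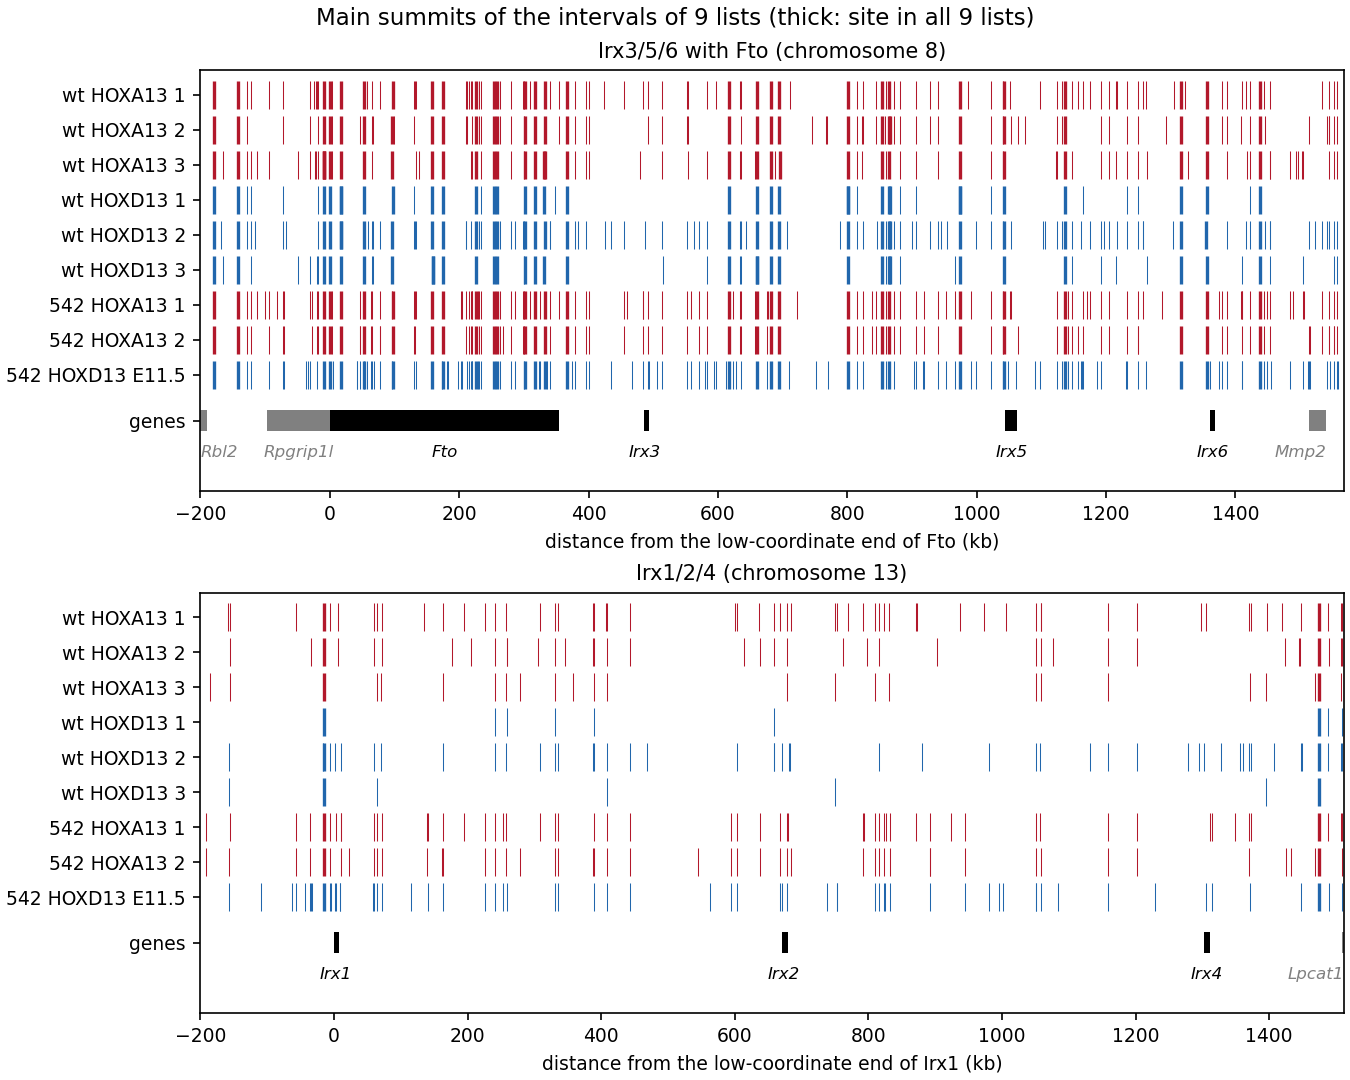
Main summits of the intervals (vertical lines) of each of the 9 lists across the Irx3/5/6-Fto region (upper panel) and the Irx1/2/4 region (lower panel), as distance in kb from the low-coordinate end of Fto or of Irx1. Red marks HOXA13, blue marks HOXD13, thick lines mark sites in all 9 lists, and black and grey boxes are member and other genes. The upper panel has 29 sites in all lists and the lower panel 2.

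Per Mb, intervals were 3.41-fold denser in the Irx3/5/6-Fto region than in the Irx1/2/4 region over the 6 wt libraries (log2 ratio 1.77 ± 0.79, SD, n = 6). The ratio was 1.89, 2.37 and 3.60 with HOXA13, and 5.17, 2.401 and 7.89 with HOXD13. It was above 1 in 6 of 6 libraries, which gave p = 0.03125 in a two-sided exact sign-flip permutation test, the smallest that 6 libraries allow. Adjusted over the 4 tests of this kind (Benjamini-Hochberg), the permutation p was 0.0625 and did not pass 0.05. The ratio was 2.35 and 2.15 in the 542 HOXA13 lists and 2.32 in the 542 HOXD13 list. The highest ratios belonged to the 2 shortest wt lists, in which 9 and 7 intervals stood for the Irx1/2/4 region, and the part of list length in the ratio was not tested.

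Against the density of all autosomes and X in the same list, the Irx3/5/6-Fto region was 1.92-fold, 2.30-fold and 2.35-fold dense with HOXA13 and 2.91-fold, 2.25-fold and 2.20-fold with HOXD13. The mean log2 value was 1.203 ± 0.195 (SD, n = 6), above 0 in 6 of 6 libraries (exact sign-flip permutation test, p = 0.03125, adjusted 0.0625). The Irx1/2/4 region reached 1.02-fold, 0.970-fold and 0.652-fold with HOXA13 and 0.563-fold, 0.935-fold and 0.279-fold with HOXD13. Its mean log2 value was -0.57 ± 0.71 (SD, n = 6), below 0 in 5 of 6 libraries (exact sign-flip permutation test, p = 0.0625, adjusted 0.0625). The 2 regions therefore lay on opposite sides of the genome-wide density in 5 of the 6 wt lists, and neither difference passed after adjustment.

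**Figure D2:**
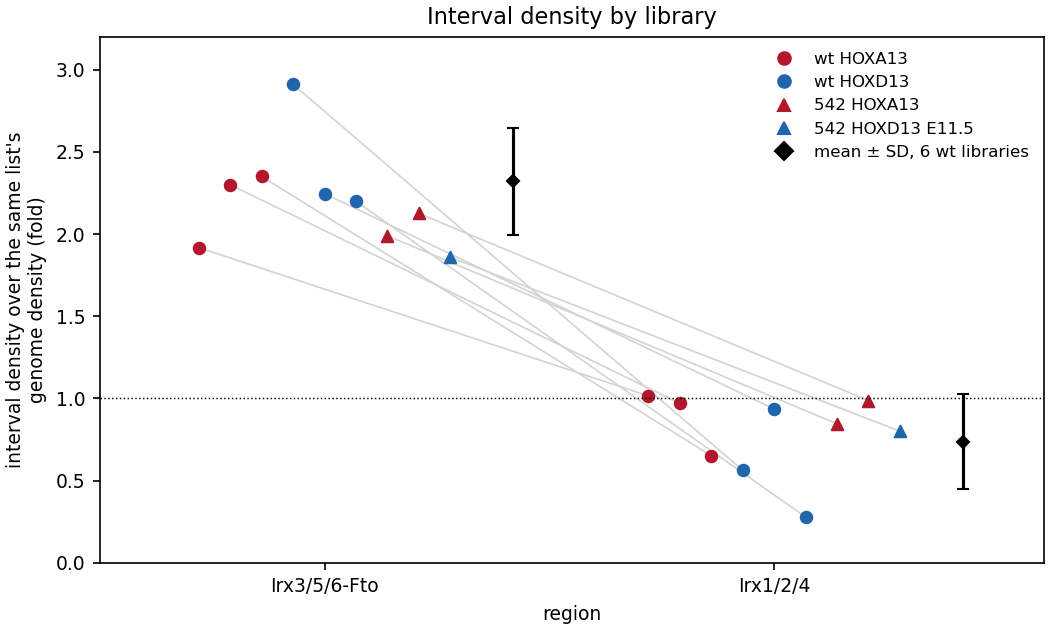
Interval density of each library in the 2 regions as a fold of that list's own density over autosomes and X. Circles are wt and triangles 542 libraries, red is HOXA13 and blue HOXD13, grey lines join the values of 1 library, the dotted line is the genome density, and diamonds are the mean and SD of the 6 wt libraries. Values at Irx3/5/6-Fto lie between 1.86 and 2.91 and values at Irx1/2/4 between 0.279 and 1.02.

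The regions also differed in gene content and composition. GC content was 45.5% in the Irx3/5/6-Fto region and 44.2% in the Irx1/2/4 region, and the annotation gave 46 and 20 genes, of which 9 and 6 were protein-coding. The part of gene content in the difference was not tested. Between the outer ends of the Irx genes alone, without Fto and without any extension, the mean log2 ratio was 1.89 over the 6 wt libraries, a setting added after the values were seen. In that span the Irx3 to Irx6 stretch held 51, 43, 37, 22, 56 and 25 intervals in the wt lists and the Irx1 to Irx4 stretch 45, 28, 17, 5, 32 and 3, over 0.882 Mb and 1.31 Mb.

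Intervals of the Irx3/5/6-Fto region also ranked higher in fold enrichment, the peak caller's ratio of read ends at the summit over the local background. Their median percentile within the list exceeded that of the Irx1/2/4 intervals by 13.6 ± 10.8 points (SD, n = 6) and in 5 of 6 wt lists (exact sign-flip permutation test, p = 0.0625, adjusted 0.0625). The exception was wt HOXA13 replicate 3, with medians of 48.2 and 48.8. Intervals whose fold enrichment reached 5 numbered 57, 46 and 13 with HOXA13 and 12, 26 and 7 with HOXD13 at Irx3/5/6-Fto, against 16, 10 and 4, and 0, 7 and 1, at Irx1/2/4. Over the genome density of such intervals, log2 values at Irx3/5/6-Fto were 1.56, 2.09 and 1.37 with HOXA13 and 1.58, 1.23 and 1.08 with HOXD13. At Irx1/2/4 they were nearer the genome with HOXA13, at -0.22, -0.06 and -0.28. HOXD13 replicates 2 and 3 gave -0.61 and -1.68 there. These counts also follow the number of intervals in each region. When each list was limited to its 10000 intervals with the highest -log10 p, the wt lists kept 20 to 37 intervals in the former region and 1 to 4 in the latter, and the percentile difference turned to -2.61 points over these few intervals.

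Sites shared by all lists made up a larger part of the Irx3/5/6-Fto region. Of its 236 sites, 29 (12.3%) were found in all 9 lists, against 2 of 135 (1.48%) in the Irx1/2/4 region and 6.40% of all 187006 sites outside chromosome 2. In the 6 wt lists alone, 31 of 165 sites (18.8%) and 2 of 93 sites (2.15%) were in every list, beside 10.5% of 122950 sites in the genome. Sites of a single list made up 41.5%, 54.8% and 50.0%. These shares are descriptions of the lists, without a test.

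Sites in 8 lists were mostly missing from 1 of the 2 shortest lists, in both regions and in the genome. The Irx1/2/4 region had 6 sites in 8 lists, and each of the 6 was missing from wt HOXD13 replicate 1 (2 sites) or replicate 3 (4 sites). The Irx3/5/6-Fto region had 18 sites in 8 lists, of which 8 were missing from replicate 1 and 7 from replicate 3. Of the 8076 sites in 8 lists outside chromosome 2, 52.5% were missing from replicate 1 and 25.7% from replicate 3. The part of list length in these counts was not tested. Without these 2 lists, a setting added after the values were seen, 54 of 234 sites (23.1%) at Irx3/5/6-Fto and 12 of 135 (8.89%) at Irx1/2/4 were in the other 7 lists, beside 11.8% in the genome.

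**Figure D3:**
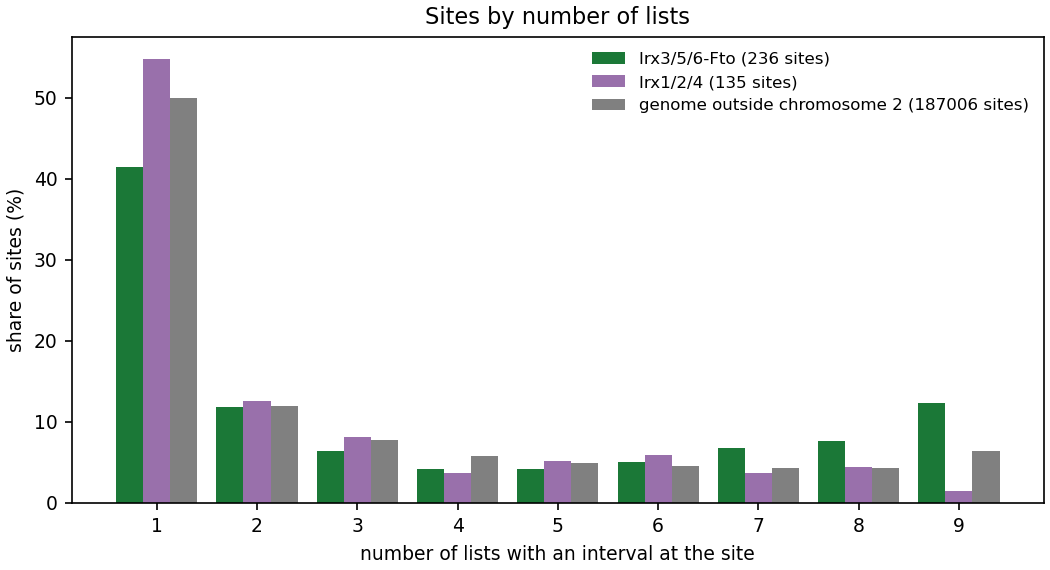
Share of sites (vertical axis, percent) by the number of lists with an interval at the site (horizontal axis) in the Irx3/5/6-Fto region, the Irx1/2/4 region and all autosomes and X outside chromosome 2. In the last class, sites in all 9 lists, the shares are 12.3%, 1.48% and 6.40%.

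The 29 sites in all lists lay in several parts of the Irx3/5/6-Fto region. Before the Fto start lay 4, in the body of Fto 11, between Fto and Irx3 1, between Irx3 and Irx5 9, between Irx5 and Irx6 3 and past Irx6 1. The bodies of Irx3, Irx5 and Irx6 held none of them. By the annotation at their summits, 15 were intronic, 12 intergenic, 1 in a coding exon of Rpgrip1l and 1 in an exon of the lincRNA Gm36670. From the nearest member start, 27 of the 29 were over 5 kb away, as were 225 of all 236 sites of the region.

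All 11 sites in the body of Fto, a gene of 355 kb, fell in introns. In order along the gene, 6 lay 17.4, 52.3, 96.9, 158.6, 174.8 and 225.9 kb past the Fto start. The other 5 were nearer to Irx3, at 234.4, 230.7, 187.0, 171.6 and 156.7 kb past its start on the downstream side, since Irx3 is read from the minus strand. Interval density in the Fto body was 66.7 ± 20.5 per Mb over the 6 wt lists (SD, range 42.3 to 90.2). It was 45.9 ± 13.5 per Mb between Irx3 and Irx5 and 43.1 ± 19.6 between Irx5 and Irx6. In the gaps of the other cluster, it was 18.5 ± 12.1 per Mb between Irx1 and Irx2 and 13.6 ± 12.4 between Irx2 and Irx4. The ranges of the gaps over the wt lists overlapped between the clusters. Within each wt list, however, the Irx3 to Irx5 and Irx5 to Irx6 gaps were both denser than the other cluster's 2 gaps, without a test. The Irx3 to Irx5 gap held 30, 30, 24, 16, 35 and 18 intervals over 556 kb in the wt lists. The Irx1 to Irx2 gap held 23, 17, 10, 5, 17 and 2 over 665 kb.

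Between Irx3 and Irx5, the 9 sites fell into 4 placed 128.6, 172.2, 193.8 and 206.6 kb upstream of Irx3 and 5 placed 242.7, 190.2, 179.0, 70.1 and 1.4 kb upstream of Irx5. Irx3 and Irx5 are read away from this gap, so it is upstream of both. Between Irx5 and Irx6 the sites were 92.4 kb past the Irx5 start and 45.0 and 5.33 kb upstream of Irx6, and 1 more lay 76.9 kb past the Irx6 start. The Irx1/2/4 region had no site in all 9 lists in either gap between its Irx genes.

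At these 29 sites, the median fold enrichment was 9.22, 7.77 and 4.43 in wt HOXA13 replicates 1, 2 and 3 and 4.78, 6.14 and 4.22 in the wt HOXD13 replicates. It was 9.44 and 8.63 in the 542 HOXA13 lists and 8.28 in the 542 HOXD13 list. The median percentile of the same sites in their lists ran from 72.6 in wt HOXD13 replicate 1 to 91.7 in wt HOXA13 replicate 1. HOXA13 replicates 1 and 2 were above the HOXD13 values, and HOXA13 replicate 3 was below 2 of them, so the antibodies overlapped.

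The leading site of the Irx3/5/6-Fto region lay 128.6 kb upstream of Irx3, in intergenic sequence (chr8:91930214-91931419). Its fold enrichment was 14.6, 12.3 and 6.86 in the wt HOXA13 libraries, 3.90, 7.74 and 5.26 in the wt HOXD13 libraries, 13.4 and 12.9 with HOXA13 in 542 and 8.28 with HOXD13 in 542. Summits of the 9 lists fell within 58 bp of each other. HOXA13 replicates 1 and 2 of either genotype were the high samples, and wt HOXA13 replicate 3 lay inside the wt HOXD13 range. By percentile within the list, the wt HOXA13 values (99.1, 98.5 and 97.4) were each above the wt HOXD13 values (49.3, 93.4 and 90.0), without a test.

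The next site lay in an intron of Fto (chr8:91471426-91472787), 158.6 kb past its start. Fold enrichment there was 14.7, 12.95 and 3.42 with wt HOXA13 and 7.03, 8.998 and 3.23 with wt HOXD13. The 542 lists gave 14.0 and 13.6 with HOXA13 and 3.37 with HOXD13. Both replicates 3 and the 542 HOXD13 list were the low samples, and their summits stood apart from the other 6, so that the 9 summits spread over 945 bp. The interval of wt HOXD13 replicate 3 (chr8:91472588-91472787) did not reach the common summit, so its place in this site rests on the joining of neighbouring intervals.

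A site 193.8 kb upstream of Irx3 (chr8:91995343-91996408) had all 9 summits within 27 bp. Fold enrichment was 13.1, 11.9 and 7.61 with wt HOXA13, 6.25, 8.90 and 6.87 with wt HOXD13, 8.06 and 8.10 with 542 HOXA13 and 3.12 with 542 HOXD13. By fold enrichment the 542 HOXA13 values lay within the wt HOXA13 range, and the 542 HOXD13 value lay below the 3 wt HOXD13 values. By percentile within the list, 542 HOXA13, at 86.1 and 86.6, lay below each wt HOXA13 value (98.1, 98.1 and 98.7). Read ends at the summit per M read ends of the library were 1.53 and 1.63 against 4.49, 3.02 and 2.22. No test was run for this chosen site. Stage, genotype and read length cannot be told apart in the single 542 HOXD13 library.

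Of the remaining 2 leading sites, the one in an exon of Gm36670, 172.2 kb upstream of Irx3 (chr8:91973426-91974841), ran from 4.12 in wt HOXA13 replicate 3 to 13.01 in 542 HOXA13 replicate 1. The other, 242.7 kb upstream of Irx5 (chr8:92113378-92115376), ran from 4.85 in wt HOXD13 replicate 1 to 10.6 in wt HOXA13 replicate 1. With 542 HOXD13 they stood at 10.9 and 9.77, above each of the wt HOXD13 values. By percentile within the list, the second of them (94.9) was below wt HOXD13 replicate 3 (97.5).

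In the Irx1/2/4 region, the first of the 2 sites in all lists was in an intron of the non-coding gene Gm40999, downstream of Irx1 and 21.2 kb past its start (chr13:71942090-71943253). Fold enrichment was 9.09, 8.33 and 7.29 with wt HOXA13 and 4.68, 7.13 and 6.40 with wt HOXD13, and 11.1 and 12.1 with 542 HOXA13 and 6.62 with 542 HOXD13. Each wt HOXA13 value was above each wt HOXD13 value and both 542 HOXA13 values were higher still, without a test for this chosen site. By percentile within the list these groups overlapped. Percentiles were 91.3, 92.5 and 98.3 with wt HOXA13, 70.3, 91.4 and 96.5 with wt HOXD13 and 95.7 and 97.4 with 542 HOXA13. Summits lay within 39 bp. The second site, 171.4 kb past the Irx4 start and 35.3 kb from Lpcat1 (chr13:73431319-73432529), gave 7.87, 4.24 and 5.26 with wt HOXA13, 3.63, 3.65 and 3.57 with wt HOXD13, 11.6 and 7.81 with 542 HOXA13 and 6.95 with 542 HOXD13. Here too the wt antibodies did not overlap in fold enrichment. By the pileup of read ends at the summit per M read ends of the library, the wt HOXA13 range was 0.743 to 1.48 and the wt HOXD13 range 0.461 to 0.501.

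The other leading sites of this region, in 8 lists each, stood in the gap between Irx1 and Irx2. They were 262.3 and 281.7 kb upstream of Irx2 (chr13:72365469-72366972 and chr13:72345726-72347675) and 325.3 kb upstream of Irx1 (chr13:72288212-72289693). The site nearest to Irx2 reached 11.3 and 11.52 with 542 HOXA13 and 12.1 with 542 HOXD13, against 8.47, 8.35 and 5.87 with wt HOXA13 and 6.69 and 3.44 in the 2 wt HOXD13 lists that held it. All 3 sites were thus called with both antibodies and in both genotypes.

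**Figure D4:**
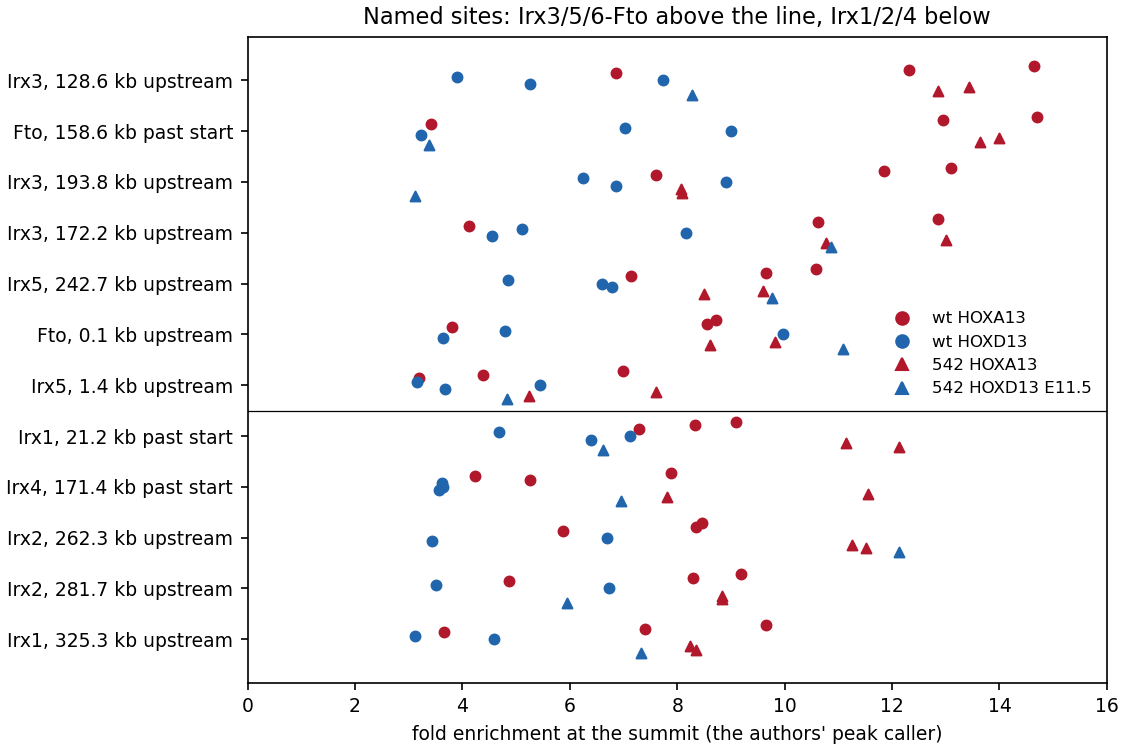
Fold enrichment at the summit, as the peak caller gave it, for 7 sites of the Irx3/5/6-Fto region (above the line) and 5 of the Irx1/2/4 region (below), named by distance from the nearest member start. Circles are wt and triangles 542 libraries, red is HOXA13 and blue HOXD13, and a library without an interval has no point. HOXA13 points reach 14.7 above the line and 12.1 below it.

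The clusters were next compared by antibody. Of the 165 wt sites at Irx3/5/6-Fto, 93 (56.4%) had an interval with both antibodies, against 31 of 93 (33.3%) at Irx1/2/4 and 43.6% in the genome. A wt site seen with HOXA13 and not with HOXD13 was found 44 times (26.7%) and 43 times (46.2%), beside 37.1% in the genome, and the opposite 28 times (17.0%) and 19 times (20.4%), beside 19.3%. The length of the HOXD13 lists moves with these shares, and its part in them was not tested. Of the sites of wt HOXD13 replicate 1 at Irx3/5/6-Fto, 97.7% were in the list of wt HOXA13 replicate 1, and of the latter's sites 39.4% were in the former. At Irx1/2/4 these shares were 88.9% and 14.3%. The whole lists held 23939 and 86941 intervals, and no genome share is given for this overlap. It is a description of 2 lists of unlike length and not a result about the antibodies.

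Sites in all 3 wt HOXA13 lists and in no wt HOXD13 list numbered 3 of 165 (1.82%) at Irx3/5/6-Fto and 1 of 93 (1.08%) at Irx1/2/4, beside 1.37% in the genome. The reverse class was empty in both regions, beside 0.0285% in the genome. The 3 sites were in Fto introns 3.49 and 220.3 kb past its start (chr8:91316694-91317328 and chr8:91533516-91534022) and 88.1 kb past the Irx3 start (chr8:91713264-91714301). Their wt HOXA13 fold enrichment was low, from 2.003 to 4.33. The Irx1/2/4 site lay 7.81 kb past the Irx2 start (chr13:72636301-72636889), at 2.84, 2.73 and 2.28 in the wt HOXA13 lists. With 542 HOXD13, an interval was present at this site (2.45) and at 2 of the other 3, so the class does not separate the antibodies over all 9 lists.

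No difference between the antibodies in how dense either region was passed its test. At Irx3/5/6-Fto the mean log2 density over genome was 1.12 ± 0.16 with HOXA13 and 1.28 ± 0.23 with HOXD13 (SD, n = 3 each), a difference of -0.16 (exact permutation test, p = 0.6, adjusted 0.75). At Irx1/2/4 it was -0.21 ± 0.35 and -0.92 ± 0.88, a difference of 0.71 (exact permutation test, p = 0.2, adjusted 0.5). The log2 ratio of the clusters was 1.34 ± 0.47 and 2.20 ± 0.87, a difference of -0.87 (exact permutation test, p = 0.2, adjusted 0.5). With 3 libraries against 3 the smallest p is 0.1, so none of these tests could pass 0.05. Adjusted values are over 5 tests of group labels. The difference at Irx1/2/4 depended on single libraries: it was 0.25 without wt HOXD13 replicate 3 and 1.12 without wt HOXD13 replicate 2, while the Irx1/2/4 density over genome of the wt libraries moved from -0.57 to -0.31 without the former. The difference in the log2 ratio was -0.48 and -1.34 under the same omissions. With the top 10000 intervals of each list, the Irx1/2/4 difference was 1.19 and the antibodies did not overlap (exact permutation test, p = 0.1, the smallest). Within each of the 3 same-numbered pairs HOXA13 was above HOXD13 at Irx1/2/4, at log2 values of 0.02 against -0.83, -0.04 against -0.10 and -0.62 against -1.84 (exact permutation test with the block, p = 0.25, the smallest that 3 pairs allow). The pairs of replicates 1 and 2 rest on the numbers in the titles, since only replicate 3 correlated best with its own number.

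The genotypes were compared with HOXA13 alone. At Irx3/5/6-Fto the fold over genome density was 1.99 and 2.13 in 542 and 1.92, 2.30 and 2.35 in wt, a log2 difference, wt minus 542, of 0.085 (exact permutation test, p = 0.6, adjusted 0.75). At Irx1/2/4 it was 0.846 and 0.987 in 542 against 1.02, 0.970 and 0.652 in wt, a log2 difference of -0.082 (exact permutation test, p = 0.9, adjusted 0.9). With the top 10000 intervals of each list, the Irx1/2/4 difference was -0.80, and both 542 lists, with 8 and 5 intervals, were above the wt lists, with 3, 4 and 4 (exact permutation test, p = 0.1, the smallest). Over all intervals, values of both genotypes overlapped in both regions, and the exact permutation test of 3 against 2 libraries cannot go below p = 0.1. The 542 reads were mapped to a mutant genome, so genotype and mapping genome cannot be told apart. The single 542 HOXD13 library gave 1.86-fold and 0.801-fold.

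At the starts of the 6 Irx genes, 5 had an interval within 1 kb in at least 1 list and 1, Irx3, had none in any of the 9, beside 6506 of 19912 protein-coding genes outside chromosome 2 with none. None of the 6 had an interval there in all 6 wt lists, beside 20.7% of the 19912, which for 6 genes is a description only. Irx1 had one in wt HOXA13 replicates 1 and 2, at fold enrichments of 3.13 and 2.39. Irx2 had one in wt HOXD13 replicate 2 and in 542 HOXD13, at 2.30 and 3.85, Irx4 in wt HOXD13 replicate 2, at 2.53, and Irx6 in 542 HOXD13, at 2.14. These were weak calls, each of them in 2 lists at most.

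Irx5 was different in that a site of all 9 lists lay close to it, 1.4 kb upstream (chr8:92355593-92356634) and 90 bp upstream of the start of Crnde, a non-coding gene read in the opposite direction to Irx5. Its fold enrichment was 6.99, 4.38 and 3.19 with wt HOXA13, 3.16, 5.45 and 3.68 with wt HOXD13, 7.60 and 5.25 with 542 HOXA13 and 4.83 with 542 HOXD13. The wt antibodies overlapped, and the summits lay within 51 bp. Only 3 of the 9 intervals reached the window of 1 kb around an Irx5 start. With a window of 2500 bp to either side, Irx5 was the 1 Irx gene with an interval in all 6 wt lists.

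Fto had an interval at its start in all 9 lists (chr8:91312819-91313913), at fold enrichments of 8.73, 8.56 and 3.81 with wt HOXA13, 4.78, 9.98 and 3.64 with wt HOXD13, 9.83 and 8.62 with 542 HOXA13 and 11.1 with 542 HOXD13. This site cannot be assigned to Fto alone, because its summit was 143 bp upstream of Fto and 120 bp from Rpgrip1l, a gene of the primary cilium read from the other strand. Among the other 8 protein-coding genes of the regions, 3 had an interval at a start in all 6 wt lists, beside 20.7% of 19912 genes outside chromosome 2. For 8 genes this is a description only. The 3 were Rpgrip1l, Aktip and Rbl2. The intervals at the Fto start also lay within 1 kb of the Rpgrip1l start, so they count for both genes. Rbl2 overlaps the edge of the region, but its gene start (chr8:91070057) lies outside, and its intervals are not among those of the region. Mmp2, a matrix metalloproteinase gene, had one in 4 of the 9 lists, Lpcat2 in 3, Ndufs6 and Mrpl36 in 6 and Lpcat1 in 7.

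Motif letters were present at summits of both regions, at shares above that of the whole list in some lists and below it in others, without a test. Within 50 bp windows, 13.9%, 18.3% and 9.68% of summits at Irx3/5/6-Fto held a match in the wt HOXA13 lists and 10.4%, 6.72% and 12.3% in the wt HOXD13 lists. At Irx1/2/4 the shares were 15.3%, 15.8% and 8% with HOXA13, of 59, 38 and 25 summits, and 11.1%, 8.33% and 14.3% with HOXD13, of 9, 48 and 7. Over all summits of the same lists they were 12.4%, 12.0% and 9.37%, and 11.54%, 8.22% and 7.44%. In 542 HOXA13 replicates 1 and 2 and 542 HOXD13, the shares at Irx3/5/6-Fto were 19.1%, 11.9% and 13.2%. At Irx1/2/4 they were 17.9%, 24.5% and 6.35%, beside 16.4%, 15.6% and 11.1% over all summits of these lists. Windows 1000 bp to either side of the Irx3/5/6-Fto summits gave 1.26% to 3.13% in the wt lists. Around the Irx1/2/4 summits such windows gave 2.54%, 3.95% and 8% with HOXA13, of 118, 76 and 50 windows, and 5.56%, 2.08% and 14.3% with HOXD13, of 18, 96 and 14. In both replicates 3 the share beside the Irx1/2/4 summits was thus the same as at them. Of the 29 sites in all lists, 6 held a match, as did 26 of all 236, and at Irx1/2/4 none of 2 and 7 of 135.

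Of the 5 sequences printed above, 4 hold a match. The match in the Fto intron starts 14 bp before the summit and that of the site 193.8 kb upstream of Irx3 starts 3 bp past it, whereas both matches at Irx1/2/4 start 29 bp past it. The leading site upstream of Irx3 has none of these letters in its window. Windows of this length held a match at 49 of 236 and 19 of 135 sites, and at 14.7% to 27.7% of all summits across the 9 lists. Over their whole lengths, the 2 regions held 0.513 and 0.514 matches per kb.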

How the data were processed

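The authors trimmed reads (cutadapt), mapped them (Bowtie2) to mm10, or to the 542 mutant genome for that line, kept mapping qualities of at least 30 and called peaks for each library with MACS2 at q 0.05 on read ends extended to 200 bp. The deposited files give, per summit, a fold enrichment (a ratio over local background), -log10 p and -log10 q, and a display score that was not used. Rows of 1 interval were reduced to the summit with the highest -log10 p. Pileups were recovered from fold and -log10 p, whole within 0.01 at 1275 of 1275 summits of the regions. Counting error alone understates the uncertainty of these pileups, since duplicates may remain. Densities were compared per list by exact permutation tests (Python 3.11.15, numpy 2.4.6, scipy 1.17.1), checked on simulated data. Members, sites, gene lists and tests were chosen with earlier results of these data known. The named sites were the 5 in most lists per region (ties by median percentile), up to 3 per region in all wt lists of 1 antibody and none of the other, and those at member starts. Replicate numbers from the titles served as pairs in an alternative with a block. Deviations of same-numbered wt libraries had correlations of 0.111, 0.143 and 0.348 over 20311 sites. HOXA13 replicate 1 correlated more with HOXD13 replicate 2 (0.219) and HOXA13 replicate 2 more with HOXD13 replicate 1 (0.146), so only replicate 3 correlated best with its own number. The p-values measure the spread between libraries. In the sign-flip tests, the wt libraries differed in antibody and read length, and wt HOXD13 replicate 3 was an earlier library. Spread between pools of embryos cannot be told apart from these differences. Each replicate 3 also correlated negatively with replicates 1 and 2 of the other antibody (-0.269 to -0.178). The tests, those of group labels included, took the libraries as independent, which was not tested. A list of other homeobox genes was compared at their starts and is not reported here.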

Additional observations from a re-analysis of the deposited data

How the results depend on the processing

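Values here are log2 unless stated, over the wt libraries. The density ratio of the clusters, 1.77, kept its direction in each alternative run and passed an adjusted 0.05 with every summit counted (2.02), the top 10000 intervals (3.37), extensions of 100 kb (1.96) or none (2.04), the share of bases covered (2.23) and the Irx genes alone (1.89). In the same order, the Irx3/5/6-Fto density over genome passed at 1.29, 1.89, 1.22, 1.18, 1.42 and 1.04, and also at 1.49 for fold enrichments of 5 or more. The Irx1/2/4 density over genome passed at -0.73 with every summit, -1.48 with the top 10000, -0.75 with 100 kb and -0.80 by share covered. The percentile difference passed at 18.2 points without extension, 23.0 by -log10 p and 20.1 with the Irx genes alone, and turned to -2.61 with the top 10000. These passes rest on the smallest p of 6 libraries (0.03125, exact sign-flip permutation test). The ratio and the Irx3/5/6-Fto density had the same p in the main run. Their passes thus came from the adjustment over the tests of each setting, not from a smaller p. Every summit and share covered gave no percentile difference, so fewer tests were adjusted there. With the limit of 5, the Irx3/5/6-Fto density was the only test of this kind with a value. The antibody difference at Irx3/5/6-Fto turned to 0.37 for fold enrichments of 5 or more, 0.58 with the top 10000 and 0.0044 by share covered. The genotype difference turned to -0.18 at Irx3/5/6-Fto with the top 10000, and at Irx1/2/4 to 0.12 without both replicates 3 and without wt HOXA13 replicate 3 (range -0.20 to 0.12 when single libraries were left out). The cause of these turns was not tested. The limit of 5 gave no value for the ratio, the Irx1/2/4 density, the percentile difference and the antibody differences at Irx1/2/4 and in the ratio, since wt HOXD13 replicate 1 had 0 such intervals there.

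With the replicate block, 3 pairs gave exact permutation p = 0.25 for the density ratio and both densities, the smallest they allow, and the genotype difference at Irx1/2/4 was 0.12 over 2 pairs. No result could pass 0.05 with 3 or 2 pairs, so the block says nothing about stability.

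Leaving out wt HOXD13 replicate 3 moved the ratio of the clusters to 1.53, the lowest such value, and the highest was 1.94. The share of sites in all 9 lists at Irx3/5/6-Fto, 12.3%, was 2.47% for fold enrichments of 5 or more (genome 3.46%), 4.13% with summits within 100 bp (genome 1.75%) and 3.39% with intervals covering 50% of a site (genome 1.45%), against 0%, 1.12% and 0% at Irx1/2/4. Under the first of these settings the Irx3/5/6-Fto share was below that of the genome. The shortest lists gave 9 and 7 intervals at Irx1/2/4. Lists of like depth differed in length (57367 intervals at 44.6 M read ends and 74344 at 44.7 M), and the part of depth was not tested.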
